A study of Mus musculus with 8 samples.

Results

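The genes followed here in embryonic mouse choroid plexus are 8 signalling genes. They comprise the macrophage growth factors Csf1 and Il34, the chemokines Cx3cl1, Ccl2, Cxcl12 and Cxcl14, and the CXCL12 receptors Cxcr4 and Ackr3. All probe sets whose only listed gene symbol is one of these 8 names were taken, which gave 17 of the 45037 non-control probe sets on the array. Of these genes 4 had 1 probe set and 4 had several, and at gene level they are 8 of 18193. Choroid plexus of the fourth ventricle was measured at embryonic day 13, on 4 arrays labelled Otx2 knockout and 4 labelled wildtype. Knockouts belonged to an Otx2-deficient strain on a mixed background, and wildtypes came from the same litters. Sex was not determined. The labels call the arrays of a group biological replicates but do not say whether each was 1 embryo or a pool. The promoter or cell type that drove the removal of Otx2, and its timing, remain not given in the sources used here.

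CSF1 and IL-34 are secreted ligands of one receptor, CSF1R, on which tissue macrophages depend for survival and proliferation. Chemokines are small secreted proteins, named by the spacing of their first cysteines, that guide cells carrying matching G protein-coupled receptors. CXCL12 signals through CXCR4 and is bound and cleared by the atypical receptor ACKR3. It is made by the embryonic meninges, where it keeps Cajal-Retzius cells and cerebellar granule cell progenitors near the surface. CX3CL1, fractalkine, is a membrane-anchored chemokine whose receptor CX3CR1 marks microglia and many tissue macrophages.

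Values are log2 expression levels made with RMA, so that a difference of 1 is a doubling. Array medians lay between 5.85 and 5.90, and no pair of arrays was identical. Differences are knockout-labelled minus wildtype, and a gene is said to have risen or fallen where its adjusted p in limma was under 0.05 over all 18193 genes, each represented by its brightest probe set. Otx2 itself was higher in the knockout-labelled arrays (12.44 ± 0.04 against 11.97 ± 0.09, SD, n = 4 each, adjusted p = 0.000648). The place of its probes relative to the deleted part, not given in the sources used here, was not checked. Each direction below therefore rests on the labels alone. Of 11 measured markers of the choroid plexus epithelium, 10 lay above the median level of all probe sets in the wildtype arrays, and Kl, a hormone co-receptor, lay below it.

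Cxcl12, Cx3cl1, Ackr3, Csf1 and Ccl2, that is 5 of the 8 genes, rose in the knockout-labelled arrays. None fell in limma, and Il34, Cxcl14 and Cxcr4 did not pass. At an unadjusted p under 0.05 in limma, 6 of the 8 were higher, with Cxcl14 added, and 0 were lower. Over all genes tested, 7.84% rose and 11.7% fell. Brighter genes rose more often: in a limma fit of the 9096 genes above the median level, 1459 rose, with 4 of the members. The members were chosen with earlier results of these data known, so their shares are a description and not a test. The median log2 difference of the 8 was 0.37, against 0.0005 over all genes. In the same 5 genes every knockout-labelled array lay above every wildtype array, a separation in that direction that 9.98% of all genes showed. Leaving out knockout-labelled replicate 1, the same group's replicate 4, wildtype replicate 2 or that group's replicate 3 left 3 genes past the threshold, because Csf1 and Ccl2 then missed it.

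Stretches before the annotated start of 4 of the genes that rose are shown, since these genes moved in one direction. An entry was found for 6 of the 8 members, and each sequence is the 250 bases before the start, from RefSeq (GRCm38.p6), written 5′ to 3′ on the strand of the gene. Capitals mark every match to GGGCGG (the GC box) on either strand, and to TATAAA (the TATA box) on the gene's strand. Csf1 is on the minus strand at chr3:107760470-107760719, Cx3cl1 on the plus strand at chr8:94771930-94772179, Cxcl12 on the plus strand at chr6:117168285-117168534 and Ackr3 on the plus strand at chr1:90203730-90203979.
Csf1: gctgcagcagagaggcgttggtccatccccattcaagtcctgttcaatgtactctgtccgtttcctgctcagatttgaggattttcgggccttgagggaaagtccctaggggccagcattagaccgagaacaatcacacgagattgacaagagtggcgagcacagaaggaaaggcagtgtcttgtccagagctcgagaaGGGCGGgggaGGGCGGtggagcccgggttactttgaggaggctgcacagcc
Cx3cl1: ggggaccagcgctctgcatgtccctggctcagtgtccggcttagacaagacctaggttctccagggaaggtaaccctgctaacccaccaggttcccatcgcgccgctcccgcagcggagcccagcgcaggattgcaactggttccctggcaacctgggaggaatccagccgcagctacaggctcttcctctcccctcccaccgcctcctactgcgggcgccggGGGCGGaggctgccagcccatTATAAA
Cxcl12: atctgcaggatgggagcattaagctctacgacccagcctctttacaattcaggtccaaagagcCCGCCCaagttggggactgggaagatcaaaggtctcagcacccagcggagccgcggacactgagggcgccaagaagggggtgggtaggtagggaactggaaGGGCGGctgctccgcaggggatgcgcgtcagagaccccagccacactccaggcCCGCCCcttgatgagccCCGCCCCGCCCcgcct
Ackr3: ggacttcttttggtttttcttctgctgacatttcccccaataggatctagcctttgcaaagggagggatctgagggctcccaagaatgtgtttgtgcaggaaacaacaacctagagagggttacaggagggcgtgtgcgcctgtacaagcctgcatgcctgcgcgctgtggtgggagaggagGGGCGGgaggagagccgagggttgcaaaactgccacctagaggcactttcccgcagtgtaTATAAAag

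The TATA box letters begin at -8 from the start of Ackr3 and at -6 from that of Cx3cl1. They are in 3 of the 6 members' stretches, the third being that of Cxcr4 (at -30), which did not pass, and in 7.59% of all 32851 such stretches. Csf1 has none and holds the GC box at -51 and -41. Cxcl12 has none either and holds 5 matches to the GC box, the last pair overlapping. The GC box was in 5 of the 6 members' stretches and in 32.7% of all. TAATCC, bound by OTX2 and related homeodomain proteins, was searched on both strands and is in 0 of the 6 and in 6.25% of all. In the stretches shown, no GC box match shares bases with a TATA box match. A match is a description of letters, and its absence says only that these letters are not in this stretch.

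**Figure D1:**
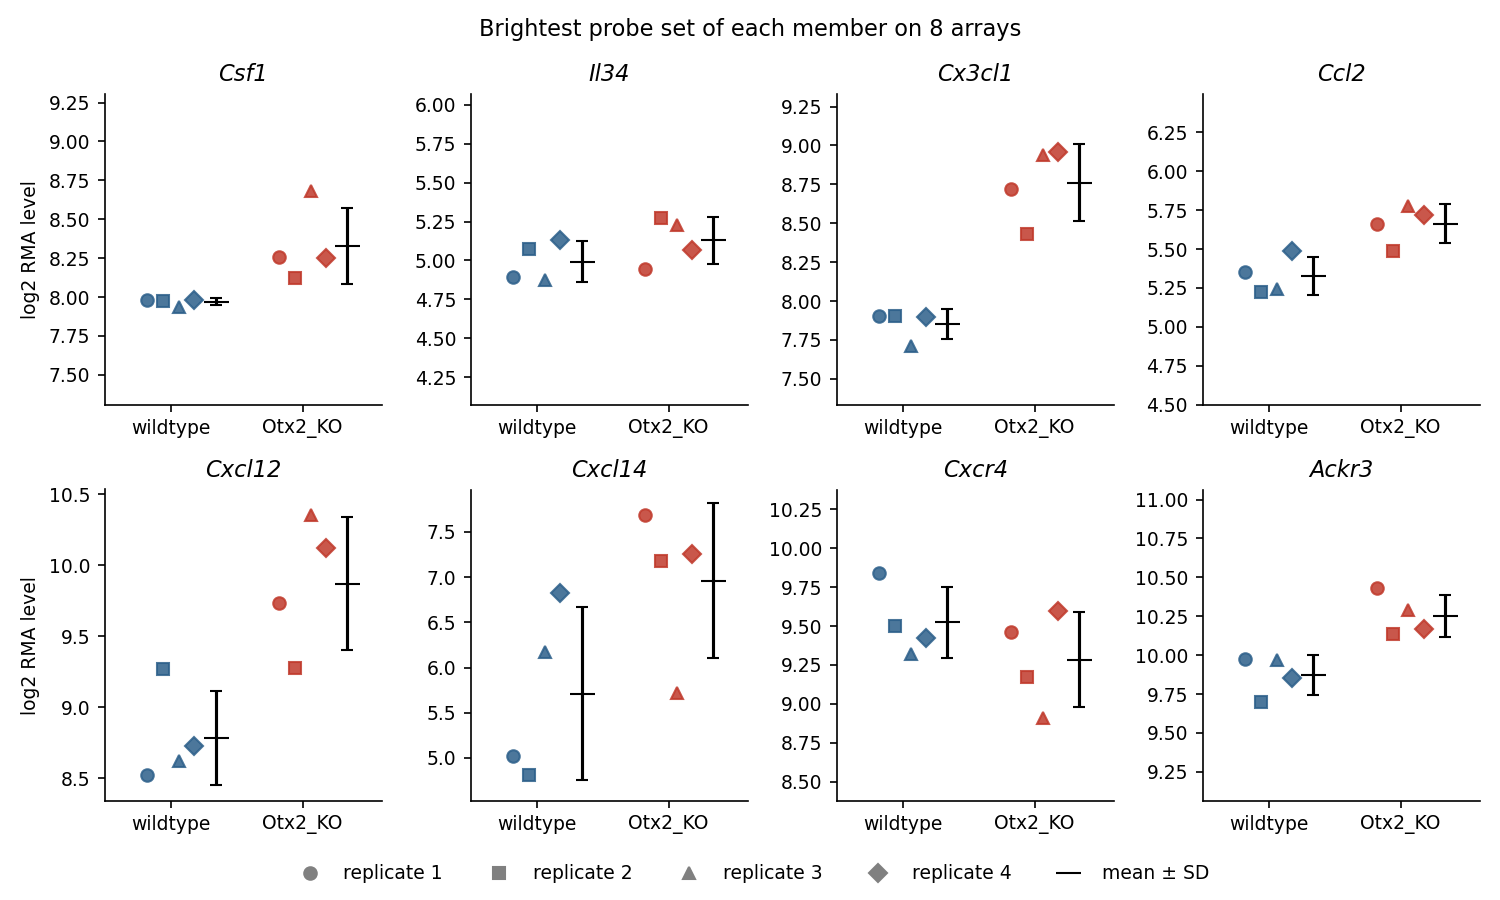
Log2 RMA level of the brightest probe set of each of the 8 genes, with wildtype arrays in blue, knockout-labelled (Otx2_KO) arrays in red, a marker shape for each replicate number and a black bar for the mean ± SD of 4 arrays. Vertical scales differ between panels. The groups are apart for Csf1, Cx3cl1, Ccl2, Cxcl12 and Ackr3, and overlap for Il34, Cxcl14 and Cxcr4.

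Csf1 encodes the colony-stimulating factor that supports most tissue macrophages. Its brightest probe set, 1460220_a_at, read 8.26, 8.12, 8.68 and 8.25 in knockout-labelled replicates 1 to 4 and 7.98, 7.97, 7.94 and 7.98 in wildtype replicates 1 to 4. Knockout-labelled replicate 3 was the highest and the wildtype arrays were nearly level, with no overlap between the groups. The means were 8.33 ± 0.24 and 7.97 ± 0.02 (SD, n = 4 each), a log2 difference of 0.36 (SE 0.11, 95% interval 0.11 to 0.61) or 1.28-fold, with a limma adjusted p of 0.0473. This call was among the weakest: with 1 array left out it held in 2 of 8 fits, those without knockout-labelled replicate 2 or 3 (adjusted p from 0.0201 to 0.113). Blocking on the replicate number gave an adjusted p of 0.0604, and the mean of the gene's probe sets a difference of 0.17 with an adjusted p of 0.167.

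The 4 probe sets of Csf1 fell into a brighter and a dimmer pair. Probe set 1448914_a_at read 7.44 ± 0.19 against 7.09 ± 0.13, a difference of 0.34 in which the groups also did not overlap. The dimmer 1425154_a_at and 1425155_x_at differed by -0.07 and 0.03. In a fit over all 45037 probe sets, where 5.27% were higher and 7.46% lower, 4 of the 17 probe sets were higher and 0 lower, none of them from Csf1, with adjusted p values of 0.0636, 0.0670, 0.658 and 0.909 for Csf1 from the brightest to the dimmest. Groups did not overlap, with the knockout-labelled arrays higher, in 6 of the 17, against 8.04% of all probe sets.

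Il34, the alternative CSF1R ligand known from neurons and skin, was dim. Its single probe set lay at the 36.9th percentile of all probe sets and read 4.95, 5.27, 5.23 and 5.07 in the knockout-labelled arrays and 4.89, 5.07, 4.87 and 5.13 in the wildtype arrays. The groups overlapped. The difference of 0.14 (95% interval -0.07 to 0.35) did not pass (adjusted p = 0.376). Whether Csf1 changed more than Il34 was tested on their difference within each array, which was larger by 0.22 in the knockout-labelled arrays (exact permutation p = 0.171, two-sided, adjusted p = 0.214 over 5 such pairs of genes).

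The receptors of these ligands were measured on the same arrays. Csf1r read 11.06, 11.24, 11.43 and 11.35 in the knockout-labelled arrays and 10.89, 10.76, 10.62 and 10.85 in the wildtype arrays, without overlap. It rose by 0.49 (SE 0.09, adjusted p = 0.00526), and its other probe sets differed by 0.54 and 0.37 and also passed in the fit over all probe sets. Sdc1, the heparan sulfate proteoglycan syndecan-1, which binds IL-34, rose by 0.52 (adjusted p = 0.00404). Ptprz1, a receptor phosphatase known as another IL-34 receptor, went from 7.78 ± 0.09 to 7.98 ± 0.12 and did not pass (adjusted p = 0.108), although its groups did not overlap. Its dimmest probe set differed by 0.63 with overlapping groups (adjusted p = 0.0547 over all probe sets).

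Cx3cl1 had the smallest p of the 8 genes. Probe set 1415803_at read 8.72, 8.43, 8.94 and 8.96 in the knockout-labelled arrays and 7.90, 7.90, 7.71 and 7.90 in the wildtype arrays. Even the lowest knockout-labelled array, replicate 2, stood well above the wildtype arrays. The means were 8.76 ± 0.25 and 7.85 ± 0.10, a log2 difference of 0.91 (SE 0.12, 95% interval 0.65 to 1.17) or 1.88-fold (adjusted p = 0.000537). It was called in all 8 fits without 1 array and in all 10 other settings tried.

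The other probe sets of Cx3cl1 gave smaller values. The next brightest, 1415804_at, read 7.02 ± 0.19 against 6.87 ± 0.08, a difference of 0.15 with overlapping groups (adjusted p = 0.393 over all probe sets). The dim ones, 1441884_x_at and 1421610_at at the 28.3rd and 26.1st percentiles, differed by 0.42 (adjusted p = 0.0884) and 0.01 (adjusted p = 0.970). With the mean of the 4 probe sets in place of the brightest, the log2 difference of Cx3cl1 was 0.37 and still passed. The rise of fractalkine thus has its full size in 1 of its 4 probe sets.

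Cx3cr1, the fractalkine receptor, rose as well. Its brighter probe set read 8.50, 8.75, 8.93 and 8.81 in the knockout-labelled arrays and 8.26, 8.19, 8.01 and 8.16 in the wildtype arrays, a log2 difference of 0.59 (SE 0.10, adjusted p = 0.00224). A dim second probe set differed by 0.08. The proteases that release fractalkine from the membrane, Adam10 and Adam17, differed by -0.04 and -0.11 in their brightest probe sets, and neither passed (adjusted p = 0.698 and 0.359). Dimmer probe sets differed by -0.41, -0.22 and 0.17 for Adam10 and by -0.08 and -0.265 for Adam17. None of them passed in the limma fit over all probe sets. Ctss, the lysosomal protease cathepsin S, which also cuts fractalkine, rose by 0.62 (adjusted p = 0.00245).

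Ccl2, the monocyte chemoattractant, was low. Its only probe set lay at the 44.2nd percentile, below the median of all probe sets. It read 5.66, 5.49, 5.78 and 5.72 in the knockout-labelled arrays and 5.35, 5.22, 5.24 and 5.49 in the wildtype arrays. The groups were separated by less than 0.01, between knockout-labelled replicate 2 and wildtype replicate 4. The log2 difference was 0.34 (SE 0.09, 95% interval 0.15 to 0.53) or 1.26-fold (adjusted p = 0.0214). With 1 array left out the call held in 3 of 8 fits, those without wildtype replicate 1 or 4 or knockout-labelled replicate 2 (highest adjusted p 0.0679). Ccr2, the CCL2 receptor of monocytes, read 5.55 ± 0.24 against 5.50 ± 0.07 in its brightest probe set (adjusted p = 0.843), and its 3 dimmer probe sets differed by -0.09 to -0.07.

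Cxcl12 showed the largest rise among the genes that passed. Probe set 1448823_at read 9.73, 9.28, 10.35 and 10.12 in the knockout-labelled arrays and 8.53, 9.27, 8.62 and 8.73 in the wildtype arrays. Knockout-labelled replicate 2 and wildtype replicate 2 lay side by side, 0.01 apart, while the remaining arrays of the groups were far from each other. The means were 9.87 ± 0.47 and 8.79 ± 0.33, a log2 difference of 1.09 (SE 0.23, 95% interval 0.56 to 1.61) or 2.12-fold (adjusted p = 0.0101). Leaving out 1 array gave differences between 0.93 and 1.28, called in all 8 fits. With the mean of its 3 probe sets in place of the brightest, the difference was 0.54 and still passed (adjusted p = 0.0161).

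The dimmer probe sets of Cxcl12 followed only in part. Probe set 1417574_at, at the 70.2nd percentile, read 7.60, 7.44, 7.97 and 7.92 against 6.95, 7.70, 7.24 and 6.98. Wildtype replicate 2 was again the highest of its group, here above knockout-labelled replicates 1 and 2. The difference of 0.52 had an adjusted p of 0.0928 over all probe sets. Probe set 1439084_at, at the 34.6th percentile, differed by 0.01.

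**Figure D2:**
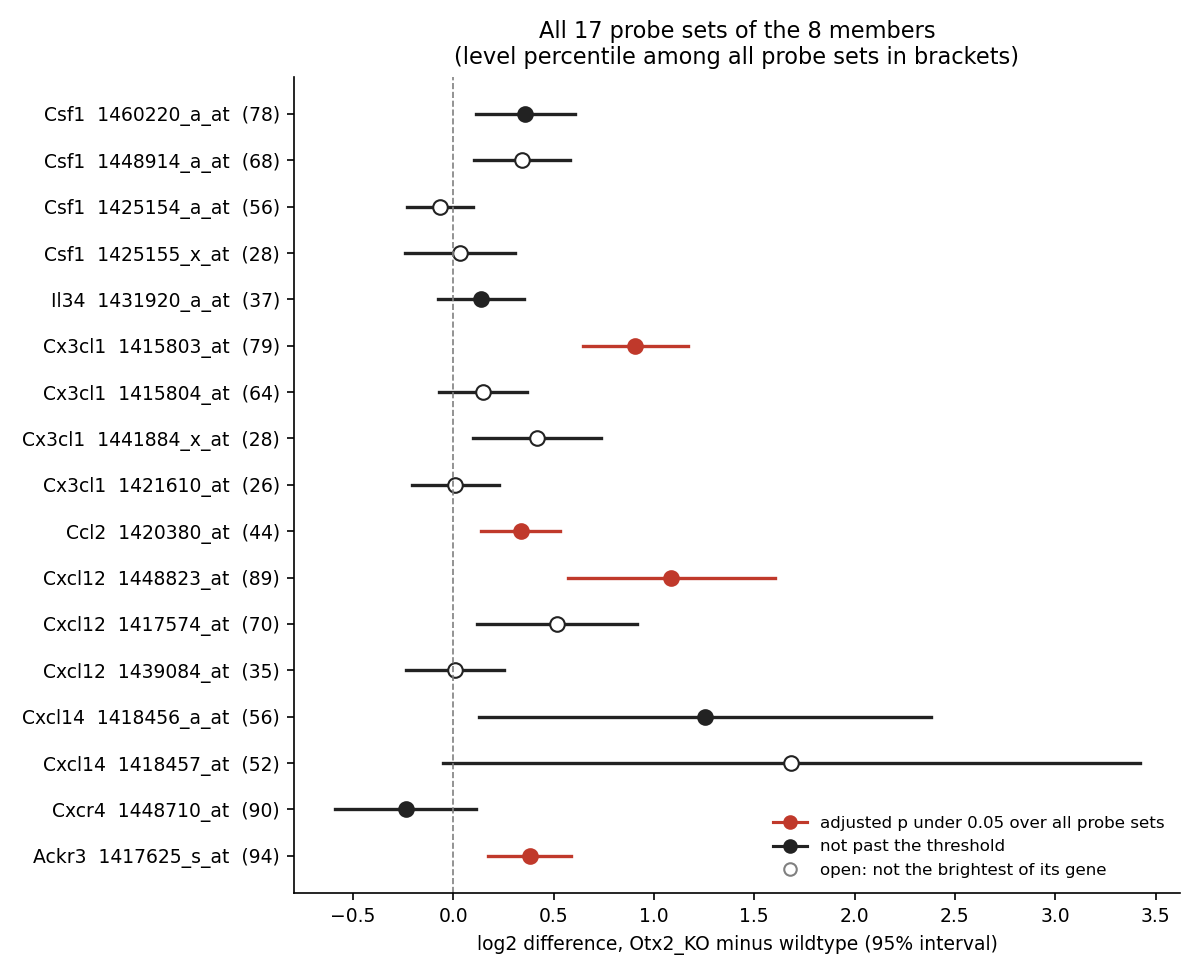
Log2 difference (knockout-labelled minus wildtype) of all 17 probe sets with its 95% interval, in the limma fit over all 45037 probe sets; filled points are the brightest probe set of a gene, and the number in brackets is the level percentile among all probe sets. In red are the 4 that passed in this fit, from Cx3cl1, Ccl2, Cxcl12 and Ackr3. Csf1, with an adjusted p of 0.0636 here, passed only in the fit over genes, and the intervals of Cxcl14 are the widest.

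Cxcl14, a chemokine of skin and other epithelia without a settled signalling receptor, had the largest mean difference and the largest spread. Probe set 1418456_a_at read 7.68, 7.18, 5.72 and 7.26 in the knockout-labelled arrays and 5.02, 4.81, 6.18 and 6.83 in the wildtype arrays. Knockout-labelled replicate 3 was low, below wildtype replicates 3 and 4, while the other 3 knockout-labelled arrays lay above the whole wildtype group. The means were 6.96 ± 0.86 and 5.71 ± 0.96, a log2 difference of 1.25 (SE 0.51, 95% interval 0.10 to 2.41). It did not pass in limma (unadjusted p = 0.0364, adjusted p = 0.129). Without knockout-labelled replicate 3 the difference was 1.67 and passed (adjusted p = 0.0368).

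The second Cxcl14 probe set repeated this pattern array by array. Probe set 1418457_at read 7.89, 7.03, 4.85 and 7.52 against 3.98, 3.94, 5.70 and 6.92, with a difference of 1.68 (adjusted p = 0.207 over all probe sets). The profile over the 8 arrays nearest to that of Cxcl14, looked up after its spread was seen, was that of Krt5, a keratin of basal surface epithelium, with a root mean square difference of 0.464 between centred log2 values. Krt5 read 8.06, 8.18, 7.12 and 8.36 in the knockout-labelled arrays and 6.70, 6.67, 6.81 and 8.0 in the wildtype arrays. Both genes were low in knockout-labelled replicate 3 and high in wildtype replicate 4. The part of other tissue in the Cxcl14 values was not tested.

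**Figure D3:**
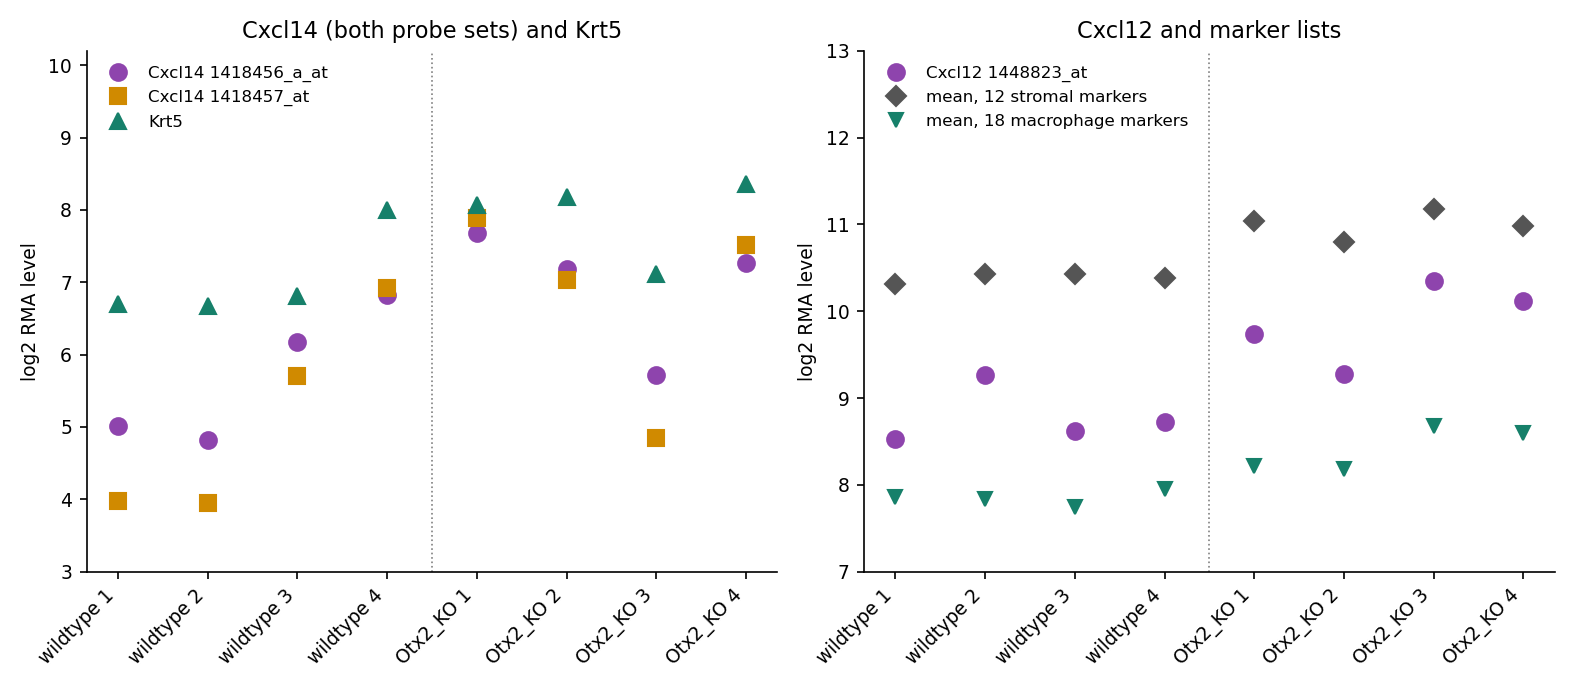
Left, log2 RMA levels of both Cxcl14 probe sets and of Krt5 on each array; right, Cxcl12 with the mean levels of 12 stromal fibroblast markers and 18 macrophage markers on the same arrays. Cxcl14 and Krt5 share the low knockout-labelled replicate 3 and the high wildtype replicate 4, and Cxcl12, the stromal mean and the macrophage mean are all lowest in replicate 2 within the knockout-labelled group. Within the wildtype group Cxcl12 is highest in replicate 2 and the macrophage mean in replicate 4.

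Cxcr4, the signalling receptor of CXCL12, did not pass in either direction. It read 9.46, 9.17, 8.91 and 9.59 in the knockout-labelled arrays and 9.84, 9.50, 9.32 and 9.43 in the wildtype arrays, with overlap. The means were 9.28 ± 0.31 and 9.52 ± 0.23, and the difference of -0.24 (95% interval -0.60 to 0.12) did not pass (adjusted p = 0.363). It stayed negative in all 8 fits without 1 array, from -0.34 to -0.11, and passed in none of them.

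Ackr3, the scavenging receptor of CXCL12, rose modestly. It read 10.43, 10.13, 10.29 and 10.17 in the knockout-labelled arrays and 9.97, 9.70, 9.97 and 9.86 in the wildtype arrays, without overlap. The means were 10.25 ± 0.14 and 9.87 ± 0.13, a log2 difference of 0.38 (SE 0.09, 95% interval 0.18 to 0.58) or 1.30-fold (adjusted p = 0.0153), called in all 8 fits without 1 array. Its only probe set, 1417625_s_at, carries a suffix for probes shared between transcripts. Dpp4, the peptidase that inactivates CXCL12, was dim, with 5.08 ± 0.09 against 5.11 ± 0.05 in its brightest probe set (adjusted p = 0.802). Its dimmer probe sets differed by 0.51, 0.13 and 0.62. None of them passed in the limma fit over all probe sets (adjusted p = 0.438, 0.598 and 0.274).

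Ligand and receptors were then compared with each other through their difference within each array, since the levels of different probe sets cannot be set against one another but the change of that difference can. Cxcl12 minus Cxcr4 was higher by 1.32 in the knockout-labelled arrays, with values of 0.27, 0.11, 1.44 and 0.53 against -1.32, -0.23, -0.70 and -0.70. All 4 knockout-labelled values lay above the wildtype ones (exact permutation p = 0.0286, two-sided, the smallest that 4 against 4 arrays can give). Adjusted over the 5 pairs the p is 0.143, and with so few arrays it could pass only if at least 3 pairs reached the smallest p. Cxcr4 minus Ackr3 was lower, with a difference of -0.62 (exact permutation p = 0.0571, adjusted p = 0.143), and Cxcl12 minus Ackr3 was higher by 0.71 (exact permutation p = 0.0857, adjusted p = 0.143). Cxcl12 minus Cxcl14 differed by -0.17 (exact permutation p = 0.83, adjusted p = 0.83). With the mean of each gene's probe sets the differences for Cxcl12 against Cxcr4, Ackr3 and Cxcl14 were 0.77, 0.16 and -0.93. Exchange within same-numbered pairs of arrays cannot give a p under 0.125.

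Few genes of the rest of the chemokine family passed the test. Of 28 other measured chemokine ligands 1 rose and 0 fell, with a median of -0.03. Only 10 of these 28 lay above the median level of all probe sets in the wildtype arrays. The one that rose was Ccl3, a macrophage-derived CC chemokine, from 5.63 ± 0.10 to 6.00 ± 0.14, a log2 difference of 0.37 (SE 0.08, adjusted p = 0.0136). The larger differences of Ccl12, by 0.57, and of Pf4, platelet factor 4, by 0.43, did not pass (adjusted p = 0.110 and 0.0770) and are named after their values were seen. Of 19 other chemokine receptors 1 rose, Cx3cr1, and 0 fell, with a median of 0.01. Of these 19, 7 lay under the 25th percentile of all probe sets. Without wildtype replicate 2 the receptors that rose were 2, and without knockout-labelled replicate 2, 2 fell; without that array or wildtype replicate 4, 2 of the ligands rose. At an unadjusted p under 0.05, 3 ligands were higher and 1 lower, and 2 receptors were higher and 1 lower. The counts after adjustment compare with 19.6% of all genes passing in either direction.

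Few genes in a list of other myeloid growth factors and cytokines passed. Of 17 measured ligands 1 rose, Kitl, the stem cell factor, by 0.48 (SE 0.12, adjusted p = 0.0230), and 0 fell. At an unadjusted p under 0.05 in limma, 4 ligands were higher and 0 lower. The call of Kitl was lost when knockout-labelled replicate 1 or wildtype replicate 2 or 3 was left out, and 2 ligands rose without knockout-labelled replicate 2 or 3. Of the 12 receptors for such factors 4 rose and 1 fell, with a median of 0.13. Il6st, the gp130 subunit shared by interleukin-6 family receptors, rose by 0.62 (adjusted p = 0.00373). Axl, a receptor tyrosine kinase for GAS6, rose by 0.38, Mertk of the same family by 0.41 and Csf2rb, the common beta chain, by 0.33. Il3ra fell by 0.28 (adjusted p = 0.0497), and in 7 of the 8 fits that leave out 1 array, all but that without wildtype replicate 3, 0 of the 12 fell.

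Proteases, signalling proteins and lineage factors gave mixed values. Of 8 proteases that process these ligands 2 rose, Ctss and the membrane metalloprotease Mmp14 (by 0.36, adjusted p = 0.00320), and 0 fell (1 lower at an unadjusted p under 0.05, and 1 fell without wildtype replicate 3). Of 13 genes acting below chemokine receptors 2 rose and 1 fell. Arrb2, beta-arrestin 2, rose by 0.41 (adjusted p = 0.0335), the G protein regulator Rgs16 rose by 0.24 (adjusted p = 0.0415) and the focal adhesion family kinase Ptk2b fell by 0.37 (adjusted p = 0.0411). Of these 13, 0 rose when knockout-labelled replicate 3 or 4 was left out, or any of wildtype replicates 2 to 4, and 1 rose when knockout-labelled replicate 1 was. The number that fell was 0 in 6 of the 8 fits, all but those without knockout-labelled replicate 3 or wildtype replicate 1. Of 7 transcription factors of the macrophage lineage 1 rose, Spi1, which encodes PU.1, by 0.38 (adjusted p = 0.0481). With an array left out, 0 of the 7 rose in 7 of the 8 fits, all but that without knockout-labelled replicate 2.

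**Figure D4:**
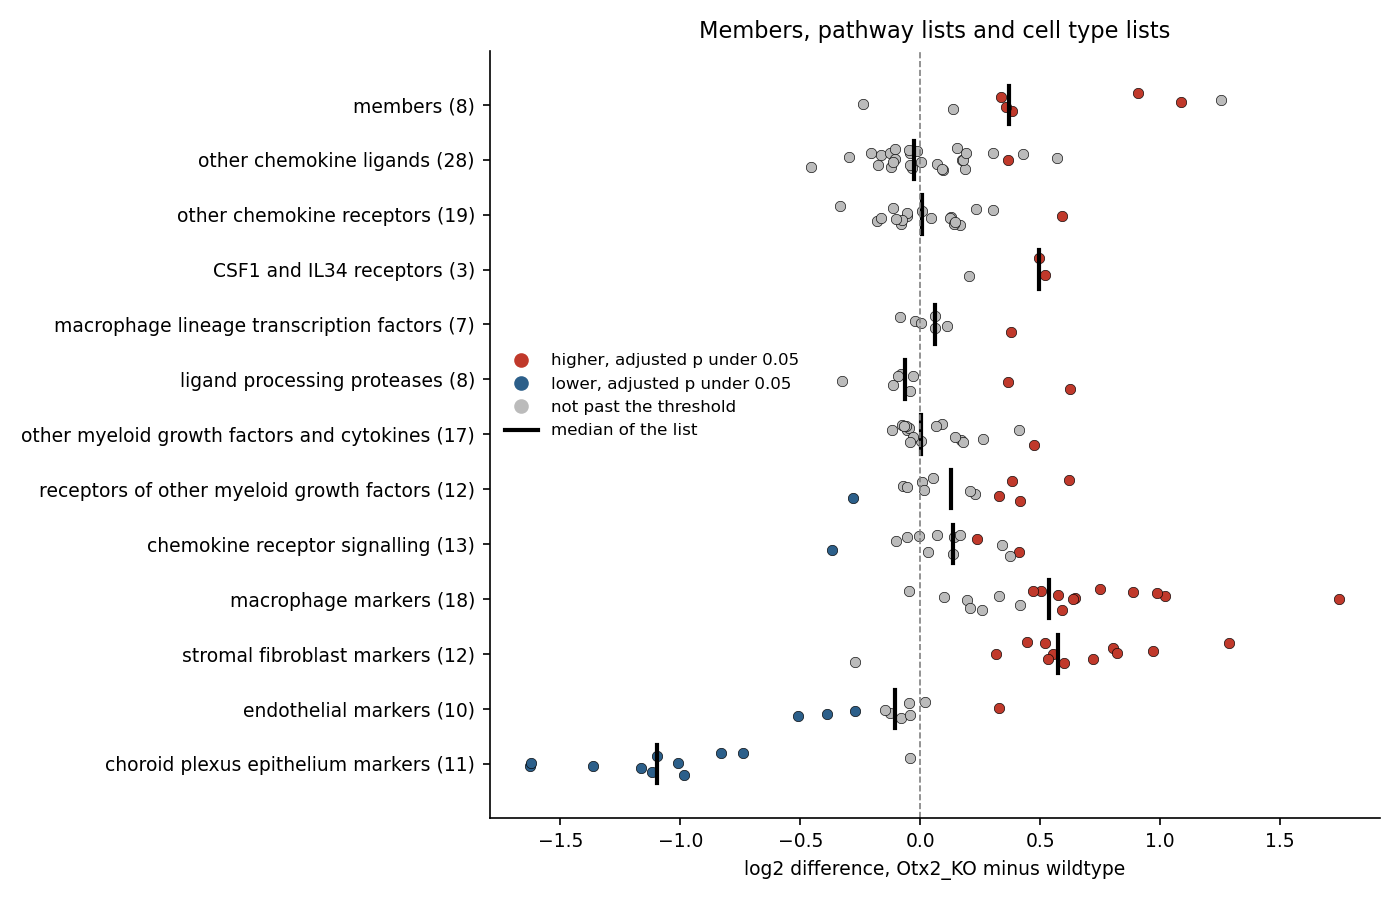
Log2 difference (knockout-labelled minus wildtype) of each measured gene of the 8 members, 8 pathway lists and 4 cell type lists, with the number of genes in brackets and a black bar at the median. Red and blue mark genes past an adjusted p of 0.05 over all genes. The medians are 0.37 for the members, -0.03 and 0.01 for the other chemokine ligands and receptors, and 0.54 and 0.57 for the macrophage and stromal markers.

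Markers of other cell types moved with these genes. Of 18 macrophage markers 11 rose and 0 fell (median 0.54), with the smallest p values for F13a1 (1.02), Lyve1 (1.75) and Adgre1 (0.89), and their summed level was 13.08 to 13.63 in the knockout-labelled arrays and 12.49 to 12.72 in the wildtype arrays on the log2 scale. Itgam, an integrin of myeloid cells, lay under the 25th percentile of all probe sets and differed by -0.05. Of 12 stromal fibroblast markers 11 rose and 0 fell (median 0.57), among them Lum by 0.53, Tbx18 by 0.60 and Col3a1 by 0.45; 1 fell without knockout-labelled replicate 3. Their summed level was 15.10 to 15.36 against 14.67 to 14.77. Within the knockout-labelled group the mean stromal level was lowest in replicate 2 (10.80) and highest in replicate 3 (11.18). The mean macrophage level was likewise lowest in replicate 2 (8.18) and highest in replicate 3 (8.67), the same arrays in which Cxcl12 was lowest and highest. Mean levels of neuron and Cajal-Retzius cell markers ran the other way in this group. They were highest in knockout-labelled replicate 2 (9.33 and 8.38) and lowest in knockout-labelled replicate 3 (7.76 and 7.60). The order of these arrays is thus not particular to stromal and macrophage markers, and its source was not tested. Within the wildtype group Cxcl12 was highest in replicate 2 (9.27). There the mean stromal level was 10.43, the same to 2 decimals as in wildtype replicate 3. The mean macrophage level there was 7.83, and it was highest in wildtype replicate 4 (7.96). In whole tissue, more cells of a type and more RNA per cell cannot be told apart, and the part of these cell types in the rise of Cxcl12, Cx3cl1, Csf1, Ccl2 and Ackr3 was not tested.

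Epithelial and endothelial markers went the other way or stayed mixed. Of 11 choroid plexus epithelium markers 10 fell and 0 rose (median -1.10), with Slc4a10, a sodium bicarbonate transporter, at -1.63, Tmem72 at -1.62 and the water channel Aqp1 at -1.01. Their summed level was 15.05 to 15.23 against 15.67 to 15.78. Of 10 endothelial markers 1 rose and 3 fell (median -0.10), with Plvap at -0.51, Emcn at -0.39 and Cdh5 at 0.33. The adjusted p of Cdh5, an endothelial cadherin, was 0.0454, and 0 of the 10 rose with the replicate block or, when 1 array was dropped, in 7 of the 8 fits (1 rose without knockout-labelled replicate 2). The summed endothelial level was 12.628 to 12.817 against 12.759 to 12.995.

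Genes with the most similar profiles over the 8 arrays were looked up for each of the 5 genes that rose, among genes above the median level. Likeness was the root mean square difference between log2 profiles centred on their means. For Cxcl12 these were Tgm2, a transglutaminase (0.154), Itih5, a hyaluronan-associated matrix protein (0.158), and Serping1, the C1 inhibitor (0.193). Tgm2 read 9.19, 8.57, 9.52 and 9.38 in the knockout-labelled arrays, low in replicate 2 like Cxcl12. For Cx3cl1 they were Plat, tissue plasminogen activator (0.0543), Cd248, the pericyte and fibroblast protein endosialin (0.0648), and Svip (0.0765). Csf1 was nearest to the transcription factor Foxo1 (0.0504), pyridoxal kinase, Pdxk (0.0606), and the sorting receptor Sorl1 (0.0712), which itself did not pass (log2 difference 0.27, adjusted p = 0.115). Ccl2 was nearest to Atad3a, Rell1 and Hsd17b11 (0.0386 to 0.0422). Ackr3 was nearest to Dmd, which encodes dystrophin, the glutathione transferase Gsto1 and the G protein gamma subunit Gng10 (0.0567 to 0.0680).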

How the data were processed

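The authors deposited RMA values on the log2 scale, 1 per probe set of a 1-colour biotin array, per the submitters' processing notes. RMA brings arrays to a common distribution and can understate differences of dim genes. Software version, filters and detection calls remain not given in the sources used here, so a low level cannot be told from background, and the number of arrays limits precision.

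Of 45101 probe sets, 64 controls were left out. The platform annotation lists 1 gene for 34945, several for 932 and none for 9160. Each of 18193 genes was represented by the probe set with the highest mean on the 8 arrays. Of the named probe sets, 34741 had their gene identifier in the RefSeq table (GRCm38.p6, used for names), and 0 symbols changed. Groups were compared with limma 3.58.1 in R 4.3.3 (genotype only, two-sided, Benjamini-Hochberg over all genes, or over all 45037 probe sets where stated). The procedure was tested on simulated data. Within-array differences of 5 gene pairs were tested exactly over 70 assignments of arrays (scipy 1.17.1).

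The members, 8 pathway lists and 9 marker lists were chosen with earlier results of these data known. Named were all members, their direct partners, Otx2, up to 3 called genes of each list (or the one with the smallest p), and the 3 nearest profiles of each called member. Others were named after their values were seen.

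After group means were subtracted, arrays sharing a number correlated at 0.131, 0.232, 0.160 and 0.223, each above the limit of 0.1. From these values only, the numbers were used as pairs in the replicate block and in the exchange within pairs. Arrays with different numbers correlated at -0.296 to 0.294, the highest being knockout-labelled replicate 3 with wildtype replicate 4. These values therefore do not single out the same-numbered pairs. The main fit did not use the pairing. Limma p-values set the difference between the groups against the spread of these arrays within the groups. Exact p-values set it against other assignments of the same arrays. Alternatives were the replicate block, array weights, a trended robust prior, other scalings, other probe set choices, a filter on dim genes, other thresholds and leaving out each array.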

Additional observations from a re-analysis of the deposited data

Results flagged for a closer look

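In 7 of 126 groups of 4 arrays, 1 array stood far from the other 3 relative to the group's range (beyond Dixon's 95% limit), where chance gives about 1 in 20. For the genes followed here these were the lowest knockout-labelled Csf1 value of probe set 1425154_a_at (6.14, replicate 1), the lowest wildtype Cx3cl1 value of 1415803_at (7.71, replicate 3) and the highest knockout-labelled Cx3cl1 value of 1415804_at (7.30, replicate 3). Among the other genes they were the lowest knockout-labelled Ctss (10.07) and Reln (10.31), the lowest wildtype Csf2rb (6.54) and the highest wildtype Emcn (10.04).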

How the results depend on the processing

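Directions of the 8 genes were the same in every setting tried. Cx3cl1 was called in all of them, and Cxcl12 and Ackr3 in all 8 fits without 1 array. With the replicate number as a block 4 of the 8 genes rose, without Csf1 (adjusted p = 0.0604), and no other member's call changed. In that fit 2 other chemokine ligands, 2 other growth factors or cytokines and 2 rhombic lip genes rose, 2 erythroid genes fell and 0 endothelial genes rose. The Cxcl12 minus Cxcr4 difference of 1.32 had an exact permutation p of 0.125 with exchange within pairs (the replicate block), the smallest possible. At an adjusted p under 0.01, 601 genes rose, 1349 fell, and 1 of the 8 genes and 1 of the 17 probe sets rose. With a fold change of at least 1.5, 432 rose, 768 fell and 2 of the 8 rose. Without 1 array, 905 (wildtype replicate 3) to 1845 (knockout-labelled replicate 2) genes rose, 3 to 5 of the 8 genes and 2 (knockout-labelled replicate 1) to 7 (knockout-labelled replicate 2) of the 17 probe sets, against 1426, 5 and 4 with all arrays. Ackr3 has no value without shared probe sets, and Il34, Ccl2 and Cxcl14 have none among genes above the median level. Where a call was lost, the cause was not tested.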

Other observations

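Cell types known to carry Cxcr4 gave other values. Of 10 Cajal-Retzius cell markers 3 rose and 1 fell (median 0.30). Calb2, calretinin, rose by 3.84, Reln, the secreted guidance protein reelin, by 1.67 and Ndnf, a neurotrophic factor, by 0.38, while Trp73, also a gene of multiciliated cells, differed by -1.06 (adjusted p = 6.83e-06). The homeobox genes Lhx1 (0.63, SE 0.36) and Lhx5 (0.04, SE 0.28) and the transcription factors Ebf2 (0.20, SE 0.43) and Ebf3 (0.23, SE 0.43) varied widely between arrays and did not pass. Of 9 rhombic lip and granule cell progenitor markers 1 rose, the matrix gene Mfap4 by 0.76, and Atoh1, the transcription factor of these progenitors, read 9.35 against 9.04 and did not pass (adjusted p = 0.548). Without wildtype replicate 2, 2 Cajal-Retzius markers fell and 2 rhombic lip markers rose.

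Of 12 neuron markers 0 rose and 0 fell, with a median of 0.30, and Gap43, a growth cone protein, had the smallest p (log2 difference 0.57, adjusted p = 0.144). In limma 1 was higher and 0 were lower at an unadjusted p under 0.05, and 1 rose without wildtype replicate 1. The mean level of the 12 neuron markers ran from 7.76 to 9.33 in the knockout-labelled arrays and from 7.43 to 9.02 in the wildtype arrays. With this spread inside the groups, differences of the size of the median could not be told from 0. Of 7 mural cell markers 1 rose, Tagln, a smooth muscle protein, by 1.17, and 2 fell, Abcc9 (-0.45) and Rgs5 (-0.34), the latter count being 1 without wildtype replicate 3 or 4 and the former 2 without knockout-labelled replicate 4. Of 8 erythroid markers 1 fell, Alas2, the first enzyme of heme synthesis, at -0.48, and 2 fell without wildtype replicate 1.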
